A study of Mus musculus with 6 samples.

Results

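Metallothioneins are small cysteine-rich proteins that bind zinc and copper, and the genes Mt1 and Mt2 are the pair of the family that mouse hepatocytes use. Both genes were taken by name from a table of liver transcripts, in which they are 2 of 1834 genes. They had been selected on these same values, because they stood out between the groups of this study, so their difference between the groups is described here and not tested.

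The livers came from mice given an adeno-associated virus (AAV), a vector that carries a gene into liver cells. One group of 3 libraries received AAV-Ly6d, labelled as Ly6d overexpression, and the other group of 3 libraries received AAV-GFP, the green fluorescent protein control, labelled as wild type. The series text states that all mice ate the same diet, and the title places the work in metabolic dysfunction-associated steatotic liver disease (MASLD). The sources used here do not state the strain, sex, age, vector dose, the promoter that drives Ly6d or the diet itself. Whether each library of a group is a separate animal is not stated either, so every error and p-value below measures the spread between these libraries, which may be technical. In bulk liver, fewer cells of a type and less RNA per cell cannot be told apart.

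Metallothionein genes are known for how strongly their transcription can be induced. Zinc, copper and cadmium act through the zinc-sensing transcription factor MTF1, which binds metal response elements in their promoters. Glucocorticoids, fasting, oxidative stress and the acute phase response are also known inducers in liver. The proteins buffer free zinc in the cytosol and can scavenge reactive oxygen species, while the relatives Mt3 and Mt4 are known mainly from brain and from stratified squamous epithelium.

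In the GENCODE annotation on GRCm38, which is the mm10 assembly, Mt1 (ENSMUSG00000031765) lies on the plus strand of chromosome 8 from 94179082 to 94180327 and Mt2 (ENSMUSG00000031762) from 94172664 to 94173568. The transcripts that span each gene have 3 exons each and are 549 bases long for Mt1 and 511 bases long for Mt2. The end of Mt2 and the start of Mt1 are separated by 5513 bases, with Mt3 and Mt4 further upstream on the same strand. Mt3 and Mt4 are not among the 1834 genes and were not analysed here. Over 483 aligned positions the transcripts of Mt1 and Mt2 were 72.0% identical. Their longest shared stretch was 20 bases, and 0 stretches of 25 bases were shared, so reads of 25 bases or more have no exact match in both transcripts. Mt2 is overlapped on the other strand by the antisense gene model Gm45774 (94170748 to 94173412), which covers 355 of the 511 exonic bases of Mt2 (69.5%). No annotated gene overlaps Mt1. The sources used here do not state whether reads were counted by strand, so the values of Mt2 are less certain than those of Mt1.

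The sequences from 250 bases before to 30 bases after each RefSeq transcript start were searched for metal response elements. They are shown because the pair is known as metal-regulated and moved together in these libraries. They are taken from RefSeq on GRCm38.p6, plus strand, at chr8:94178839-94179118 for Mt1 and chr8:94172368-94172647 for Mt2. Capitals mark matches to the metal response element core, searched on both strands as TGCACNC and TGCGCNC.
Mt1: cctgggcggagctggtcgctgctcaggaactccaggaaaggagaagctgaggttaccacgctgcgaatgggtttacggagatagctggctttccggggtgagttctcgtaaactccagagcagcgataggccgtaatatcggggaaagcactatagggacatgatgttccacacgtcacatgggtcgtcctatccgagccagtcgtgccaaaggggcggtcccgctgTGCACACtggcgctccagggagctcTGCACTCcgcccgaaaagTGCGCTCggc
Mt2: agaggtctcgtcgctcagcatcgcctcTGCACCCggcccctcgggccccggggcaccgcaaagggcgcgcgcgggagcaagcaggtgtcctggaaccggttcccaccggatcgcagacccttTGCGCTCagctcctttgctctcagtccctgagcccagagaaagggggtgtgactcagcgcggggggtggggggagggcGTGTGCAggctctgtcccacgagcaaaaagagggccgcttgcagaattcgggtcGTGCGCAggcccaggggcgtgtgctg

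The Mt1 window held 3 such matches and the Mt2 window 4. Of 32851 RefSeq promoter windows of this length, 24.1% held at least 1 match, 1.73% held 3 or more and 0.405% held 4 or more. The Mt3 window held 0 matches and the Mt4 window 1. The Mt1 window also held 1 match to the glucocorticoid response element core, from base -94 to base -82 before the start, a pattern found in 0.435% of the windows. An antioxidant response element core, TGACNNNGC, was present in the Mt2 window from base -79 to base -71, and 11.5% of windows hold this pattern. Searches for the E-box CACGTG (6.79% of windows), the STAT site TTCNNNGAA (7.83%) and the TATA box TATAAA (13.1%) gave no match for Mt1 or Mt2. The search covered both strands, and none of the matches in these windows overlapped another. The RefSeq starts used here differ from the GENCODE starts by 7 bases for Mt1 and 46 bases for Mt2, and other GENCODE transcripts start further downstream, at 94179211 and 94179241 for Mt1 and at 94172860 for Mt2. The windows, and so the matches counted, depend on the start that is taken. Both windows end before these downstream starts, and the bases in between were not searched, so the counts may leave out elements of each promoter. A match, or its absence, describes the letters of the window and is no evidence on whether a factor was bound in these livers.

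**Figure D1:**
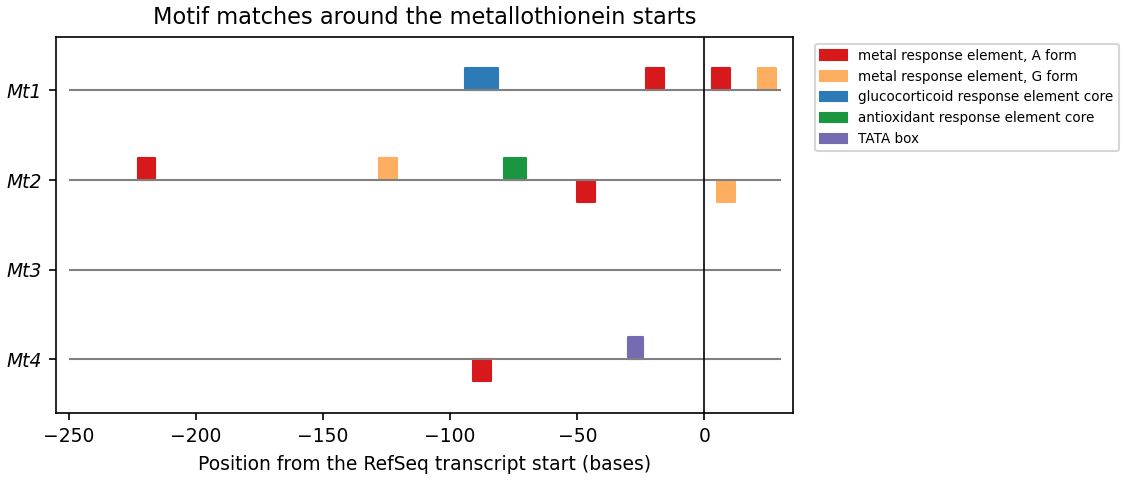
Matches to 5 sequence patterns in the windows of Mt1, Mt2, Mt3 and Mt4; the x axis is the position in bases from the RefSeq transcript start, and marks above or below a line are on the plus or minus strand. Metal response element matches number 3 for Mt1, 4 for Mt2, 0 for Mt3 and 1 for Mt4.

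Ly6d itself, the gene carried by the vector, had normalised read counts of 3181, 1799 and 3275 in AAV-Ly6d livers, against 56.1, 9.68 and 182 in AAV-GFP livers, the direction the labels give. The 1834 genes held 3835101 to 4359932 reads in the AAV-Ly6d libraries and 3248078 to 3448888 in the AAV-GFP libraries, and these sums cover part of each library. On the first principal component of the tested genes, AAV-GFP replicate 2 lay at 49.9, apart from 15.4 and 18.1 for the other AAV-GFP libraries. How the 1834 genes were chosen is not stated in the sources used here. In 84.5% of the 1780 tested genes the groups did not overlap, and limma called 43.9% of all tested genes, so the counts of called genes below hold inside this table only. A gene was called at a limma adjusted p under 0.05 over all tested genes, and rose and fell refer to this call.

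Mt1 was a well-expressed transcript and was higher in the AAV-Ly6d livers. Its normalised read counts were 4294, 1409 and 1202 in AAV-Ly6d replicates 1, 2 and 3, against 131, 422 and 1073 in AAV-GFP replicates 1, 2 and 3. All AAV-Ly6d libraries lay above all AAV-GFP libraries, but only just, since AAV-Ly6d replicate 3 held 1.12 times the value of AAV-GFP replicate 3. The means were 2302 ± 1728 in AAV-Ly6d and 542 ± 482 in AAV-GFP (SD, n = 3 each), a ratio of 4.25. On the log2(value + 1) scale the difference was 2.31 (SE 0.76), which placed Mt1 at rank 39 of the 1780 tested genes from the top. Groups that do not overlap were the rule in this table, and 35.2% of tested genes were higher in AAV-Ly6d without overlap. The size of the difference rested on single libraries. It was 1.74 when AAV-Ly6d replicate 1 was left out, 1.52 when AAV-GFP replicate 1 was left out and 3.04 when AAV-GFP replicate 3 was left out.

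Mt2 was far less abundant in the deposited values and its groups overlapped. With 1 added to each value its log2 difference was larger than that of Mt1, and with 10 added it was smaller (1.79 for Mt2 and 2.27 for Mt1). Its normalised read counts were 167, 48.8 and 26.1 in AAV-Ly6d replicates 1, 2 and 3, against 0.968, 6.46 and 40.5 in AAV-GFP replicates 1, 2 and 3. AAV-Ly6d replicate 3 held 0.645 times the value of AAV-GFP replicate 3. The means were 80.7 ± 75.8 in AAV-Ly6d and 15.98 ± 21.4 in AAV-GFP (SD, n = 3 each), a ratio of 5.05, so the spread within AAV-GFP was larger than its mean. The log2(value + 1) difference was 2.85 (SE 1.10), rank 20 of 1780. These values come from few reads, 172, 49 and 24 in AAV-Ly6d and 1, 6 and 48 in AAV-GFP, recovered from the deposited values. Recovery could not be checked automatically for AAV-Ly6d replicate 2. The single read of AAV-GFP replicate 1 has an exact 95% Poisson interval of 0.0253 to 5.57 reads, which covers counting error only. Leaving out AAV-Ly6d replicate 1 gave a log2 difference of 2.12, leaving out AAV-GFP replicate 1 gave 1.79 and leaving out AAV-GFP replicate 3 gave 3.99.

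**Figure D2:**
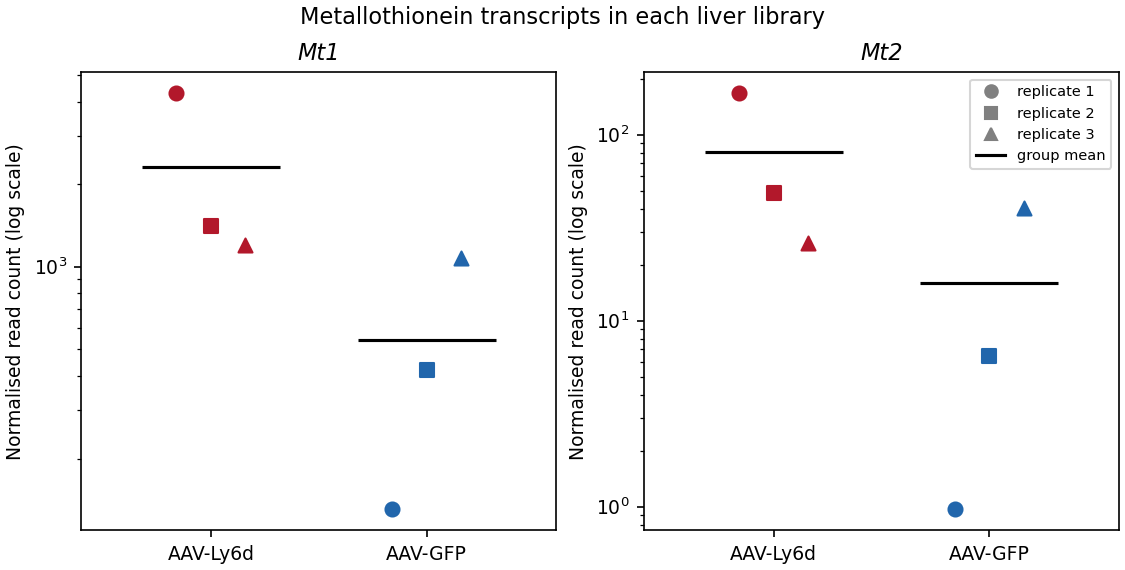
Normalised read counts of Mt1 (left) and Mt2 (right) in each library on log axes that do not start at 0, with AAV-Ly6d in red and AAV-GFP in blue, a marker shape for each replicate and a bar at the group mean. AAV-Ly6d replicate 3 lies just above AAV-GFP replicate 3 for Mt1 (1202 against 1073) and below it for Mt2 (26.1 against 40.5).

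The libraries took the same order for both genes. Within AAV-Ly6d, replicate 1 was the highest and replicate 3 the lowest for Mt1 and for Mt2. Within AAV-GFP, replicate 3 was the highest and replicate 1 the lowest for both. Relative to the group mean on the log2 scale, AAV-Ly6d replicate 1 lay 1.15 above for Mt1 and 1.46 above for Mt2, and AAV-GFP replicate 3 lay 1.46 above for Mt1 and 2.29 above for Mt2. AAV-GFP replicate 1 was the library farthest below, at -1.57 for Mt1 and -2.11 for Mt2. AAV-GFP replicate 2, which stood apart on the first principal component, lay between the other AAV-GFP libraries for both genes. Of the 1780 tested genes, 16 (0.899%), Mt1 and Mt2 included, had this order in both groups, 238 (13.4%) had it in AAV-Ly6d and 108 (6.07%) in AAV-GFP.

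Few tested genes varied as much within a group as the metallothioneins. Mt1 spanned 3.57-fold among the AAV-Ly6d libraries and 8.21-fold among the AAV-GFP libraries. For Mt2 these ranges were 6.40-fold and 41.9-fold. The within-group SD of Mt1 on the log2 scale was 1.00 in AAV-Ly6d and 1.52 in AAV-GFP, larger than in 93.9% and 96.3% of tested genes. For Mt2 it was 1.34 and 2.21, larger than in 97.9% and 99.3% of tested genes. The range and SD of Mt2 in AAV-GFP rest in part on the 1 read of AAV-GFP replicate 1, so both are poorly determined. The median tested gene had an SD of 0.28 in AAV-Ly6d and 0.43 in AAV-GFP. These percentages describe the genes of this table and not the whole transcriptome.

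On the log2 scale the ratio of Mt1 to Mt2 had a smaller SD than either gene in both groups, but it was not constant. Normalised read counts of Mt1 were 25.7, 28.9 and 46.0 times those of Mt2 in AAV-Ly6d replicates 1, 2 and 3, against 135, 65.3 and 26.5 times in AAV-GFP replicates 1, 2 and 3. The highest ratios stood in the libraries with the lowest levels, AAV-GFP replicates 1 and 2, and the groups overlapped. Per kilobase of transcript, Mt1 held 4192 ± 3148 in AAV-Ly6d and 987 ± 878 in AAV-GFP (SD, n = 3 each). Mt2 held 158 ± 148 in AAV-Ly6d and 31.3 ± 41.9 in AAV-GFP (SD, n = 3 each), so the gap between the genes was not one of length. The antisense model Gm45774 covers 69.5% of the exonic bases of Mt2, and its part in this gap and in the read shares was not tested. Mt2 accounted for 3.75%, 3.35% and 2.13% of the reads of the pair in AAV-Ly6d replicates 1, 2 and 3, and for 0.735%, 1.51% and 3.64% in AAV-GFP replicates 1, 2 and 3. The exact 95% binomial (Clopper-Pearson) intervals ran from 3.22% to 4.34% in AAV-Ly6d replicate 1, from 1.37% to 3.15% in AAV-Ly6d replicate 3 and from 0.0186% to 4.03% in AAV-GFP replicate 1. The first and second of these, both from AAV-Ly6d, did not overlap, while the single Mt2 read of AAV-GFP replicate 1 left its share poorly determined. Over summed reads the Mt2 share was 3.41% in AAV-Ly6d and 2.97% in AAV-GFP. The log2 ratio of Mt1 to Mt2, with 1 added to each value, averaged 4.99 ± 0.42 in AAV-Ly6d and 5.53 ± 0.73 in AAV-GFP (SD, n = 3 each), a difference of -0.54 that changed to 0.48 with 10 added to each value.

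**Figure D3:**
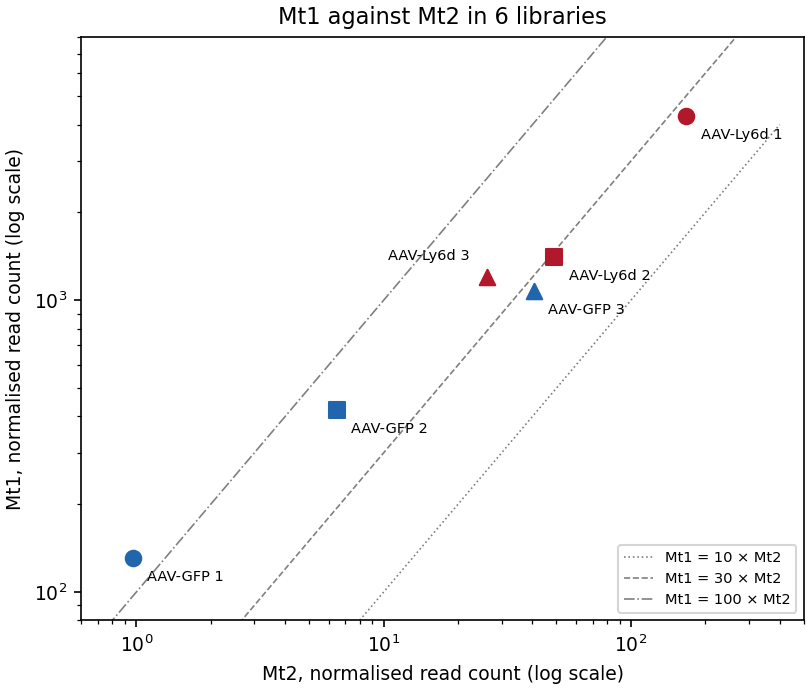
Mt1 against Mt2 as normalised read counts in each of the 6 libraries on log axes, with AAV-Ly6d in red, AAV-GFP in blue and grey lines of constant ratio. The library order is the same on both axes within each group, and the ratio runs from 25.7 in AAV-Ly6d replicate 1 to 135 in AAV-GFP replicate 1.

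Likeness between genes was measured as the root mean square difference of their log2(value + 1) profiles over the 6 libraries, after each profile was centred on its own mean. By this measure Mt2 was the gene closest to Mt1 and Mt1 the gene closest to Mt2 among 1779 others, with a difference of 0.56. The median gene lay 1.85 from Mt1 and 2.33 from Mt2. When each profile was centred within each group, so that the difference between the groups played no part, Mt2 still ranked 1 from Mt1, and Mt1 ranked 2 from Mt2, both at 0.49 against medians of 1.12 and 1.55. The measure grows with the size of a gene's deviations, and few tested genes varied within a group as much as Mt1 and Mt2. The ranks and medians therefore depend in part on the large spread of the pair itself, and not only on shared direction. The profiles share libraries and their scaling, and this is a description of 6 libraries.

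The genes described next were chosen for this likeness, which includes the difference between the groups, so their fold changes are given without a test. Fkbp5, a co-chaperone of the glucocorticoid receptor and a standard glucocorticoid-induced gene, came next to Mt1 (0.69) and was also near Mt2 (1.14, rank 3). It held 3436, 1943 and 1740 in AAV-Ly6d replicates 1, 2 and 3, against 462, 422 and 1100 in AAV-GFP replicates 1, 2 and 3. As for the metallothioneins, AAV-Ly6d replicate 1 and AAV-GFP replicate 3 were the highest of their groups. Its log2 fold change was 1.92 (SE 0.41). Scara5, a scavenger receptor that binds ferritin, lay 0.94 from Mt2 and 1.06 from Mt1 and had the same library order as both. Its values were 1250, 183 and 42.4 in AAV-Ly6d replicates 1, 2 and 3, against 14.5, 15.1 and 70.9 in AAV-GFP replicates 1, 2 and 3, with groups that overlapped and a log2 fold change of 3.04. Lpin1, a phosphatidate phosphatase of lipid synthesis, and Il1r1, the interleukin 1 receptor gene, were near both genes and also had AAV-Ly6d replicate 1 and AAV-GFP replicate 3 highest. Their log2 fold changes were 1.53 and 0.72.

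Low genes and unnamed gene models were left out of the genes named here. The other named genes near Mt1 were Prob1 (1.01), Fbxo31, a subunit of a ubiquitin ligase (1.05), Nnmt, nicotinamide N-methyltransferase (1.06), and Nfil3, a transcriptional repressor (1.08). Their log2 fold changes were 1.00, 1.39, 1.29 and 1.17 in that order. The other named genes near Mt2 were Mup-ps19, a major urinary protein pseudogene that can share reads with its relatives (1.45), Prob1, named above for Mt1, and Pim1, a kinase gene (1.51). None of these genes lay as near to Mt1 by this measure as Mt2 did. Without AAV-Ly6d replicate 1, the library highest for both metallothioneins, limma called 0 genes in the whole table, these included, while 773 had an unadjusted p under 0.05.

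**Figure D4:**
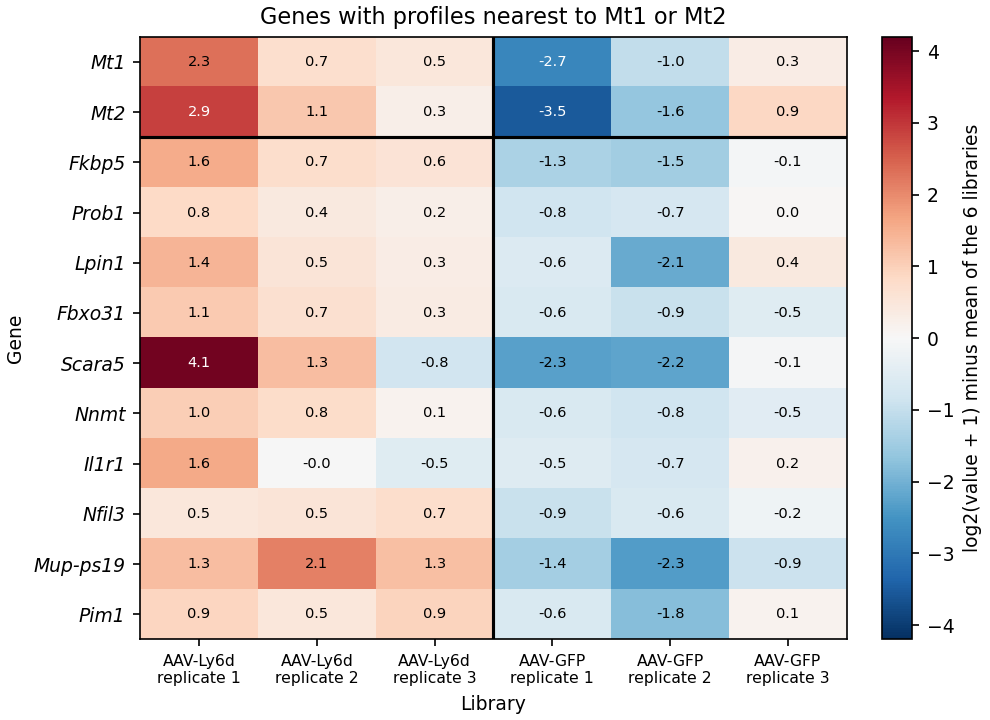
Colour and printed number give log2(value + 1) minus the gene's mean over the 6 libraries for Mt1, Mt2 and the genes with the nearest profiles, with AAV-Ly6d libraries left of the line. Mt1 and Mt2 are 0.56 apart by root mean square difference and share their highest library in each group, AAV-Ly6d replicate 1 and AAV-GFP replicate 3.

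Of 72 annotated genes that start within 1 Mb of Mt1, 37 of them protein coding, 4 are in the table, namely Mt1, Mt2 and the gene models Gm15890 and Gm45797. Gm15890, an antisense model 200102 bases downstream of the Mt1 start, ran from 12.0 to 18.5 in AAV-Ly6d and from 28.7 to 31.2 in AAV-GFP. It fell in limma with a log2 fold change of -1.06 (adjusted p = 0.0495), but the call was lost after median-ratio rescaling and whichever single library was left out. Gm45797 held at most 39.8 in any library and did not pass.

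The table holds few other genes of zinc and copper handling. All 5 of those tested had a negative log2 fold change, as did most tested genes, whose median was -0.67. Of 32 listed zinc transporters and metal-response genes, 3 were tested, 1 fell and 2 did not pass, against 28.0% of all tested genes that fell. Slc30a10, a manganese exporter of the zinc transporter family, held 413, 552 and 438 in AAV-Ly6d against 767, 1342 and 688 in AAV-GFP, and fell with a log2 fold change of -0.94 (limma adjusted p = 0.0414). Slc39a10, a zinc importer that MTF1 is known to repress, and Slc30a7, which moves zinc into the Golgi, had log2 fold changes of -0.74 and -0.58 (limma adjusted p = 0.0600 and 0.0943). The median of the 3 was -0.74, beside -0.67 for all tested genes. Slc30a1, the zinc exporter known as the other classical MTF1 target, and Mtf1 are not among the 1834 genes. From the copper list 2 of 15 genes were tested and neither passed. These were the copper-transporting ATPase gene Atp7a (-0.74) and the metalloreductase gene Steap2 (-0.84). Median-ratio rescaling ended the Slc30a10 call (-0.60, limma adjusted p = 0.0590), as did leaving out any library except AAV-GFP replicate 2.

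Of 24 listed iron genes, 8 were tested, 3 rose, 2 fell and 3 did not pass, with a median log2 fold change of 0.52. Of all tested genes 15.9% rose and 28.0% fell, so the share of iron genes that fell was near that of the table. Hamp, which encodes the iron hormone hepcidin, rose by 1.77, and Id1, a target of bone morphogenetic protein signalling, rose by 1.88. The ligand genes Bmp2 and Bmp6 fell, with -1.47 and -1.29. The 5 iron calls became 0 when AAV-Ly6d replicate 1 or 3 was left out, 2 when AAV-Ly6d replicate 2 was left out and 3 when AAV-GFP replicate 1 was left out.

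Glucocorticoid-responsive genes were mostly higher alongside the metallothioneins. Of 27 listed, 10 were tested, 8 rose, 0 fell and 2 did not pass, against 15.9% of all tested genes that rose, and the median log2 fold change was 1.06. Besides Fkbp5, the insulin-repressed Igfbp1 (1.72), the transaminase gene Got1 (1.01) and Tdo2 of tryptophan breakdown (0.71) rose. None of the 10 had the library order of Mt1 in both groups. The list shares Tat, which rose, with the hepatocyte markers described below, of which 3 of 5 tested rose. The part of hepatocyte RNA content in these counts was not tested. Leaving out a single AAV-Ly6d library left 0 of these calls, leaving out AAV-GFP replicate 1 left 1 and leaving out AAV-GFP replicate 3 left 2.

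Heat shock genes, which share several inducers with metallothioneins, showed 5 rises, 0 falls and 1 gene that did not pass among 6 tested of 18 listed, with a median of 0.94, beside 15.9% of all tested genes that rose. Hspa8 and Hspb1, a constitutive and a small chaperone, rose by 0.89 and 1.65, Hsph1 by 0.99 and Hsp90ab1 by 0.70. Of these calls 0 were left when a single AAV-Ly6d library or AAV-GFP replicate 3 was left out, and 1 when AAV-GFP replicate 1 was left out.

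In the acute phase and interleukin 6 list 5 of 11 tested genes rose, 0 fell and 6 did not pass, against 15.9% that rose and 28.0% that fell in the table. The list has 39 genes, and the median of the 11 was 0.91. Junb (1.85), the receptor gene Il6ra (0.96), the receptor antagonist gene Il1rn (0.91) and Pim1 (1.53) rose. Serum amyloid genes, the strongest known acute phase transcripts of mouse liver, are not among the 1834. With a single AAV-Ly6d library or AAV-GFP replicate 1 left out, 0 of these calls were left.

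Of 30 listed oxidative stress genes of the NRF2 pathway 3 were tested. Osgin1, an oxidative stress-induced growth inhibitor, rose by 1.20, the only call among them. Hmox1, the heme oxygenase gene, and Mgst3, a microsomal glutathione transferase gene, did not pass, with 1.73 and -0.75. The single call was lost on leaving out any library except AAV-GFP replicate 2. In the integrated stress response and fasting list 5 of 11 tested genes rose, 1 fell and 5 did not pass, where the table as a whole had 15.9% rising and 28.0% falling. The list has 29 genes, and the median of the 11 was 1.37. The pseudokinase gene Trib3 (1.23), Cth of cysteine synthesis (0.85) and Igfbp1 (1.72) rose, and the lipoprotein receptor gene Vldlr fell (-2.58). Of these 6 calls 0 were left when AAV-Ly6d replicate 1 was left out, 1 for each of the other AAV-Ly6d libraries and 2 for AAV-GFP replicate 1.

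Over all 8 lists together 51 of 204 genes were tested, of which 26 rose and 4 fell, and 43.9% of all tested genes passed in either direction. With p-values adjusted over all 55450 annotated genes, 7 of the 51 passed in DESeq2 on the recovered reads and 0 in limma. Scaling bears on these counts: rescaling each library by the median ratio moved the median log2 fold change of all tested genes by 0.34, and the rises then made up 69.2% of calls rather than 36.2%. On that scale the log2 difference was 2.65 for Mt1 and 3.16 for Mt2.

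**Figure D5:**
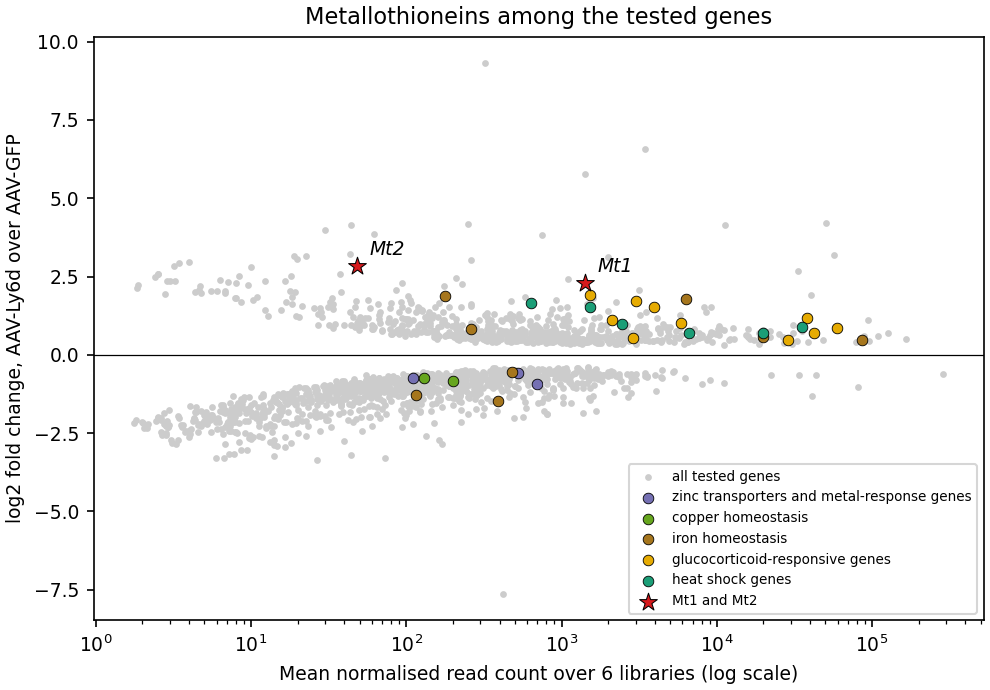
Log2 fold change, AAV-Ly6d over AAV-GFP, against the mean normalised read count over the 6 libraries (log axis) for the 1780 tested genes, with Mt1 and Mt2 as stars and 5 gene lists in colour. Mt1 (2.31) and Mt2 (2.85) lie above the coloured genes. The zinc and copper genes lie below 0, as does the median of all tested genes (-0.67).

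Markers of other cell types moved in the same libraries. The hepatocyte list, 5 of 10 genes in the table with Apob, Apoa1 and Hnf4a present, summed to between 421017 and 454933 in AAV-Ly6d and between 331782 and 835348 in AAV-GFP, so hepatocyte RNA was present in every library. The top of the AAV-GFP range came from Apob, at 743167 in AAV-GFP replicate 2. The other 4 markers, Tat, Hnf4a, Apoa1 and Serpina1a, were higher in AAV-Ly6d without overlap, and the first 3 rose. Of all tested genes, 35.2% were higher in AAV-Ly6d without overlap and 15.9% rose. Apob had a log2 fold change of -0.61 and did not pass. Without Apob, a choice made after seeing the data, the sums were 233857 to 250106 in AAV-Ly6d and 92181 to 156244 in AAV-GFP. The 6 of 10 sinusoidal endothelial markers in the table summed to 1762 to 2123 in AAV-Ly6d and to 4554 to 6616 in AAV-GFP, and the 6 of 10 stellate and fibroblast markers to 718 to 1546 in AAV-Ly6d and to 2392 to 4172 in AAV-GFP. For cholangiocytes 2 of 7 genes, Tff3 and Sox9, summed to 303 to 1111 in AAV-Ly6d and to 59.2 to 80.2 in AAV-GFP. The 5 of 7 erythroid genes summed to 1898 to 2850 in AAV-Ly6d and to 2708 to 5863 in AAV-GFP. None of the 9 listed markers of Kupffer cells and macrophages, or of the 8 of lymphocytes and neutrophils, is among the 1834 genes. These short lists do not cover every gene of such cells. The part of these shifts in the metallothionein values was not tested.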

How the data were processed

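RNA was sequenced from mouse liver in 3 AAV-Ly6d and 3 AAV-GFP libraries. Bowtie 0.12.2 and mm10 are named in the submitters' processing notes. How reads were counted and normalised, and whether by strand, is not stated in those sources. The values deposited by the authors are normalised read counts, handled as a signal, for 1834 genes. In each library 100% of deposited values were whole multiples of a step (0.972, 0.997 and 1.09 in AAV-Ly6d, 0.968, 1.08 and 0.844 in AAV-GFP) within 0.001, so reads were recovered. The step of AAV-Ly6d replicate 2 is near 1, which an automatic test cannot judge, and its recovered reads enter the printed read numbers, Mt2 shares, sums, intervals and added count fits, but not the limma fits. Full library depth is unknown, and intervals cover counting error only.

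Symbols came from GENCODE M21 (1833 of 1834 matched), promoters from RefSeq on GRCm38.p6. Genes reaching a value of 1 in at least 3 libraries (1780) were fitted with limma 3.58.1 in R 4.3.3 (eBayes with trend) on log2(value + 1), with no covariates and Benjamini-Hochberg adjustment; 54 were not tested. Fold changes on this scale understate low genes. Alternatives chosen after seeing the data were DESeq2 1.42.0 and edgeR 4.0.16 (quasi-likelihood test) on recovered reads, and adjustment over 55450 annotated genes. Other alternatives were pseudocounts, filters, rescaling, a replicate block and leaving out each library.

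Named were both metallothioneins, genes of the table within 1 Mb, the 8 named genes nearest to each in profile with a mean of at least the median, 4 members per list with the smallest p, all tested zinc genes and Ly6d. The members and lists were chosen with earlier results of these data known.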

Additional observations from a re-analysis of the deposited data

How the results depend on the processing

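With 10 added to each value in place of 1, the Mt1 to Mt2 log2 ratio difference, AAV-Ly6d minus AAV-GFP, reversed from -0.54 to 0.48. That constant is above the Mt2 values of AAV-GFP replicates 1 and 2. Leaving out 1 library at a time, this difference ran from -0.96 to -0.27, the Mt1 difference from 1.52 to 3.04 and the Mt2 difference from 1.79 to 3.99. None of the 38 other named genes changed direction in any alternative run.

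Genes called numbered 782 in limma, 0 to 607 without 1 library, 1 at an adjusted p under 0.01, 465 in edgeR on the authors' scale, 1338 in DESeq2, and 1 (limma) and 124 (DESeq2) when adjusted over all annotated genes. The 0 stood without AAV-Ly6d replicate 1, where 773 genes had an unadjusted p under 0.05. Called members of the 8 lists numbered 30, 0 to 28 without 1 library, 13 with no mean-variance trend, 0 at an adjusted p under 0.01, 16 in edgeR on the authors' scale, and 0 (limma) and 7 (DESeq2) when adjusted over all annotated genes. The cause of these changes was not tested.

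A replicate block left 48 genes called and 3 listed genes. Same-numbered libraries did not deviate together (correlations -0.0199, -0.0475 and -0.0581), and other pairs ran from -0.0754 to 0.0888. With 3 libraries in each group, such small values cannot exclude a pairing or a shared batch. The 1 and 6 reads of Mt2 in AAV-GFP replicates 1 and 2 limit the precision of its fold change.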
